A study of Mus musculus with 12 samples.

Results

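The genes described here are 10 components of transforming growth factor beta (TGF-beta) signalling, taken by name from a table of 38293 genes. They are the ligands Tgfb1, Tgfb2, Tgfb3 and Inhba, the latency proteins Ltbp1 and Ltbp3, the receptors Tgfbr1 and Tgfbr2, the inhibitor Smad7 and the transcription factor gene Meox1. They were listed by name and function, with earlier results of these data known, and all 10 passed the filter on low counts, which left 14770 genes. Polyadenylated RNA was sequenced from left ventricles of healthy C57BL/6J mice, whose age and sex the labels do not give. Every mouse underwent open-chest surgery, received 2 intramyocardial doses of 10 µl, and gave its ventricle on day 3. There were 3 groups of 4 libraries. The first received Upy-PEG hydrogel loaded with antimiR-195 (called antimiR-195 below), the second Upy-PEG hydrogel with no drug, and the third phosphate-buffered saline (PBS) with no drug. The gel is built from poly(ethylene glycol) carrying ureidopyrimidinone units, which hold the chains together by hydrogen bonding. AntimiR-195 is an antisense oligonucleotide against the microRNA miR-195. No group here was left uninjected, and none received antimiR-195 without the gel, so the antimiR-195 and PBS groups differed in gel and drug together. Whether each library stands for its own animal is not stated in the labels. The p-values therefore reflect only the variation among the samples at hand, which may be technical.

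TGF-beta ligands are secreted in a latent form, folded together with their own propeptide, and latent TGF-beta binding proteins such as LTBP1 and LTBP3 tether that complex to the matrix until integrins, proteases or mechanical pull release the ligand. The active ligand binds the receptor TGFBR2, which recruits and phosphorylates TGFBR1, and the receptor complex then phosphorylates SMAD2 and SMAD3, which enter the nucleus with SMAD4. SMAD7 is induced by the pathway and blocks the receptors in a negative feedback loop. In the heart the pathway is best known for activating fibroblasts after injury, and Meox1 encodes a homeobox factor that has been described as a regulator of fibroblast activation downstream of TGF-beta.

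Since the drug is directed at miR-195, its sequence and its matches in the genes described here are shown first. A microRNA pairs with a target mainly through its seed, bases 2 to 8, which is in capitals. The mature mouse sequences, from RefSeq on GRCm38.p6, are given for miR-195a-5p (chr11:70235062-70235082, plus strand) and, as examples, for 3 of the other entries with the same seed:
miR-195a-5p: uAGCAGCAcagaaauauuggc
miR-15a-5p: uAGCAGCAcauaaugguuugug
miR-16-5p: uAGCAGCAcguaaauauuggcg
miR-497a-5p: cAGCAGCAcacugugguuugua
The seed AGCAGCA was shared by 11 mature entries. Its reverse complement in DNA letters, TGCTGCT, was searched on the sense strand of the longest annotated 3' untranslated region of each gene (GENCODE M21, GRCm38). At least 1 match was present in Tgfb3, Tgfbr1, Tgfbr2 and Smad7, that is in 4 of the 10 genes, against 24.8% of the 13309 tested genes with such a region (3296 genes). Where the match is followed by an A it is called an 8mer, which 4.54% of the 13309 genes had, and Smad7 held the only 8mer of the group. The other sites lay at chr12:86057730-86057751 (minus strand) for Tgfb3, chr4:47412235-47412256 (plus strand) for Tgfbr1, and chr9:116089374-116089395 and chr9:116086245-116086266 (both minus strand) for Tgfbr2. They are printed with the match in capitals:
Tgfb3: tgccaccacagacTGCTGCTcc
Tgfbr1: tgggtcttctcacTGCTGCTgg
Tgfbr2, site nearer the stop codon: atttttgtcgctcTGCTGCTgg
Tgfbr2, other site: gctggtagtaagtTGCTGCTtt
Longer regions hold a match more often. The regions of Tgfbr1 and Tgfbr2, of 4154 and 6085 bases, belong to the length decile in which 60.7% of genes had a match, and Inhba, with 4492 bases in that same decile, had none. The regions of Tgfb3 (1035 bases) and Smad7 (1570 bases) belong to deciles with a match in 19.5% and 27.9% of genes. No match was found in Tgfb1, Tgfb2, Ltbp1, Ltbp3 or Meox1. A match describes letters only and is not a measured binding site.

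Libraries held 22.35 to 30.28 × 10⁶ gene counts, and 18668 to 19740 genes had a count. Myh6, the heart muscle myosin that marks cardiomyocytes, stood at 19900 to 36100 TMM-scaled CPM (counts scaled to library size, with sizes adjusted by the trimmed mean of M-values) in every library, as fits the labelled tissue. AntimiR-195 replicates 2 and 3 stood apart from the other libraries on the first principal component of log2 CPM, at -60.2 and -40.7 against -8.5 to 33.4 elsewhere. They also had the steepest decline of expression with gene length, with slopes of -0.233 and -0.139 against -0.0429 to 0.124 in the other 10. Many fitted values of named genes and counts at an unadjusted p that moved by over 1.5 times without these libraries are given with and without them.

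Per length of transcript, on the authors' RPKM (reads per kilobase of gene, scaled to library size), the 10 genes covered a wide span. Tgfb1, the main TGF-beta ligand of inflammation and repair, averaged 18 ± 2.39 RPKM in antimiR-195 hearts, 21 ± 3.11 RPKM in Upy-PEG hearts and 15.8 ± 1.57 RPKM in PBS hearts (SD, n = 4 each), the highest mean in each group. Inhba, the activin A subunit, had the lowest, at 0.233 ± 0.139, 0.476 ± 0.412 and 0.262 ± 0.165 RPKM in the same order of groups. In PBS hearts the order of mean RPKM below Tgfb1 was Tgfbr2 (14.8), Ltbp3 (12.2), Ltbp1 (7.23), Tgfb3 (6.69), Meox1 (5.78), Smad7 (5.09), Tgfbr1 (3.42), Tgfb2 (2.79) and Inhba. Within that order the ranges of 4 libraries overlapped between the neighbours Tgfb1 and Tgfbr2, Ltbp1 and Tgfb3, Tgfb3 and Meox1, Meox1 and Smad7, and Tgfbr1 and Tgfb2. Meox1 took the third place in antimiR-195 hearts (11.3 ± 4.69 RPKM) and the fourth in Upy-PEG hearts (13.6 ± 5.52 RPKM), against the sixth in PBS hearts (5.78 ± 1.20 RPKM). In both gel groups its range enclosed that of Ltbp3, its neighbour in the order. In antimiR-195 hearts Meox1 ran from 7.73 to 17.7 RPKM, the highest in replicate 2, and Ltbp3 from 9.7 to 11.1 RPKM. In whole ventricle, fewer cells of a type and less RNA per cell cannot be told apart.

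**Figure D1:**
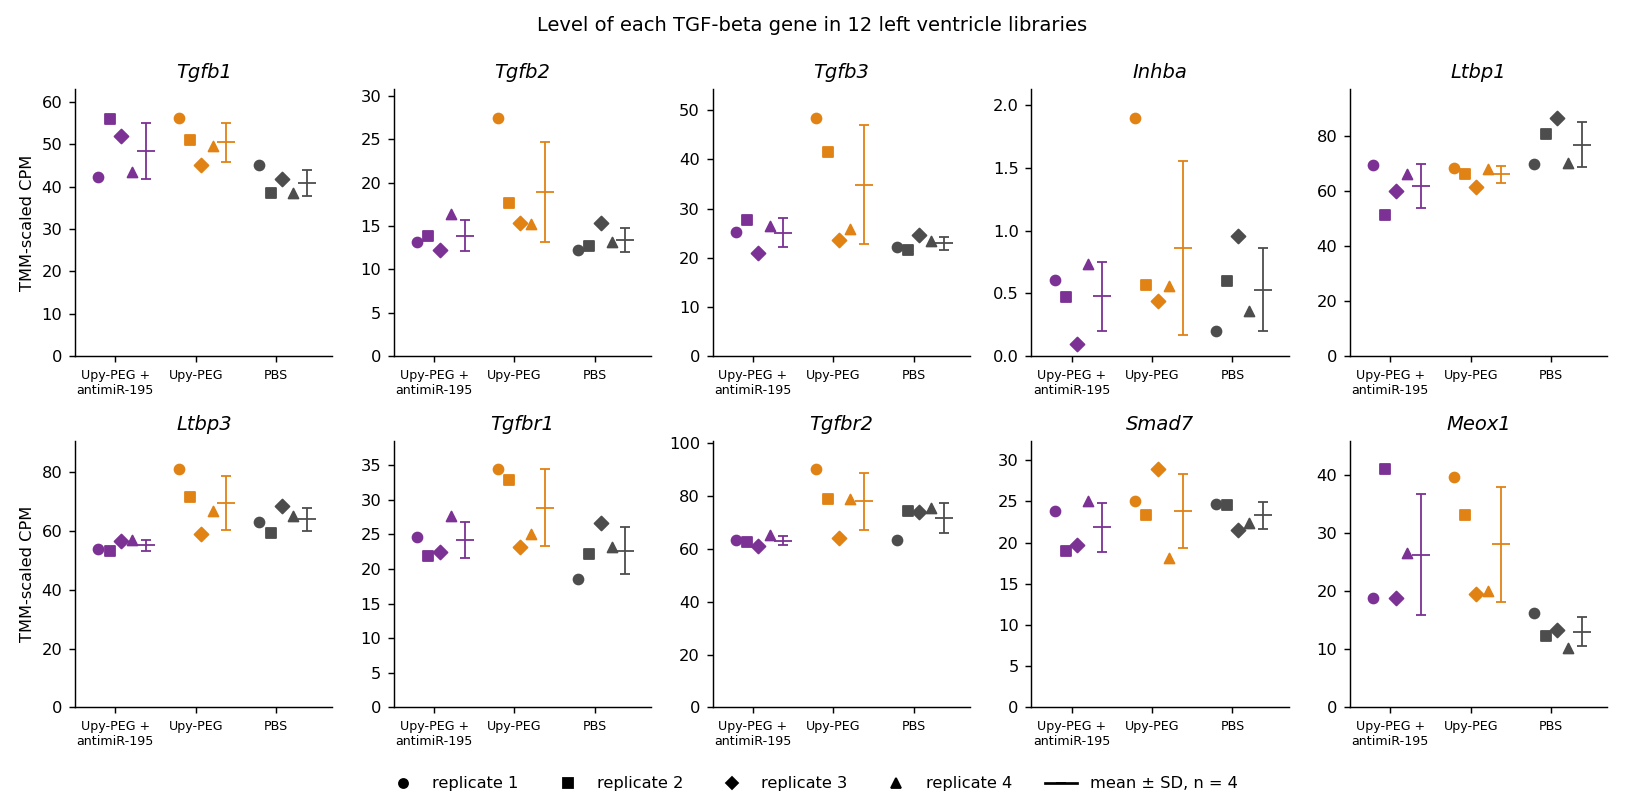
Level of each of the 10 genes in TMM-scaled CPM (y axis, linear and from 0, own scale per gene) in each library, with groups from left to right Upy-PEG with antimiR-195, Upy-PEG and PBS; symbols are replicates and the bar is the mean ± SD of 4. Meox1 lies above all 4 PBS libraries in all 8 gel libraries, while for most other genes Upy-PEG replicate 1 stands highest. The share of all genes with such a split of 8 against 4 was not counted.

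For Upy-PEG against PBS, 9 of the 10 genes had a positive log2 fold change and Ltbp1 a negative one, against 44.7% of all 14770 genes with a positive value, and their median was 0.33 against -0.03. The sign of Smad7 changed under other settings. None passed an adjusted p of 0.05 in edgeR's quasi-likelihood test with Benjamini-Hochberg adjustment, which called 0% of all genes. At an unadjusted p under 0.05, Tgfb1, Tgfb2, Tgfb3, Tgfbr1 and Meox1 were higher, against 9.33% of all genes, and none was lower, against 3.83%. Without Upy-PEG replicate 1 the median was 0.15, and 3 genes were higher at that p, against 6.17% of all genes. Without antimiR-195 replicates 2 and 3, 5 were higher at that p (11.3% of all genes) and 1 lower (6.59%). For antimiR-195 against PBS the signs were 5 positive and 5 negative, against 50.8% of all genes positive, with a median of -0.02 against 0.01. Here 0% of all genes passed the adjusted threshold, and at an unadjusted p under 0.05 Tgfb1 and Meox1 were higher (background 8.65%) and Ltbp1 lower (background 7.89%). Without antimiR-195 replicates 2 and 3 there were 7 positive and 3 negative signs with a median of 0.11, and at that p 1 gene was higher, against 2.2% of all genes, and none lower, against 2.28%. With library size alone in place of TMM, 1 was higher (background 5.28%) and 1 lower (background 10.3%). For antimiR-195 against Upy-PEG all 10 signs were negative, against 49.2% of all genes positive, with a median of -0.28 against -0.01. Of these, the signs of Ltbp1, Smad7 and Meox1 changed under another tool, covariate or set of libraries. Again 0% of all genes passed, and Tgfb2, Tgfb3, Ltbp3 and Tgfbr2 were lower at an unadjusted p under 0.05, against 6.4% of all genes, with none higher, against 6.67%. Without Upy-PEG replicate 1 the median of the 10 was -0.13 and 2 genes were lower at that p (2.79% of all genes), and without antimiR-195 replicates 2 and 3 the signs were 8 negative and 2 positive and 1 gene was lower (6.61% of all genes). Scaled by library size alone, 5 of the 10 were lower at that p for antimiR-195 against Upy-PEG (17.3% of all genes) and none higher (0.982%). The first and last of the 3 comparisons share the 4 Upy-PEG libraries, so a high Upy-PEG library pushes them in opposite directions. With library size alone in place of TMM, the median of all genes shifted by 0.10 for Upy-PEG against PBS, -0.05 for antimiR-195 against PBS and -0.15 for antimiR-195 against Upy-PEG, and no sign of the 10 genes changed. That scaling moved the share of higher genes among those with an unadjusted p under 0.05 to 91.7%, 33.9% and 5.37% in the 3 comparisons, against 70.9%, 52.3% and 51% with TMM.

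**Figure D2:**
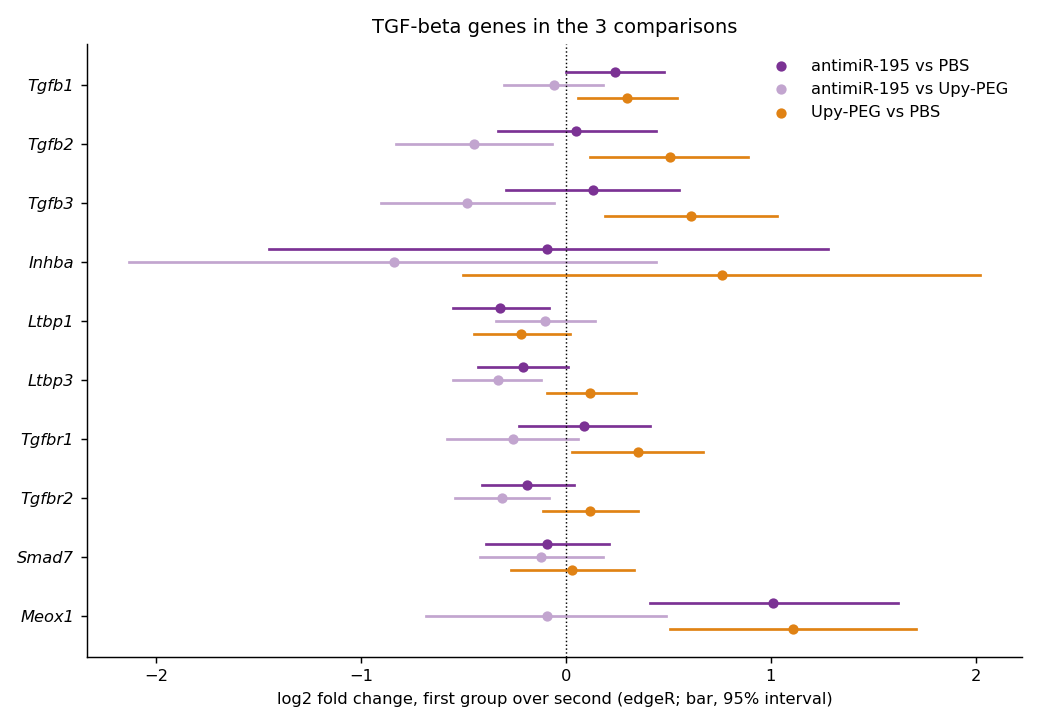
Log2 fold change of each gene (x axis) with its 95% interval in the 3 comparisons of edgeR, the group named first over the second; the dotted line marks no difference. The interval of Meox1 lies above 0 against PBS for both gels, and the widest interval is that of Inhba for antimiR-195 against PBS, from -1.45 to 1.28.

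Meox1 (ENSMUSG00000001493, chr11:101877510-101894374, minus strand, GRCm38) showed the largest difference from PBS in both gel groups. It had 18.9, 41.0, 18.8 and 26.5 CPM in antimiR-195 hearts, 39.6, 33.1, 19.6 and 20 CPM in Upy-PEG hearts, and 16.2, 12.3, 13.3 and 10.2 CPM in PBS hearts. All 8 gel libraries lay above all 4 PBS libraries, and the gel groups covered almost the same span as each other. The share of all genes with such a split of 8 against 4 libraries was not counted. Shares for groups of 4 are given below. Upy-PEG hearts averaged 28.1 ± 9.89 CPM, against 13 ± 2.49 CPM in PBS hearts (SD, n = 4 each). The log2 difference was 1.11 ± 0.28 (SE, 2.16-fold, edgeR adjusted p = 0.112). AntimiR-195 averaged 26.3 ± 10.4 CPM, which was 1.01 ± 0.28 above PBS on the log2 scale (2.02-fold, edgeR adjusted p = 0.253). By unadjusted p, Meox1 ranked 188 and 130 of 14770 genes in these comparisons. Between antimiR-195 and Upy-PEG the log2 difference was -0.09 ± 0.27 with a 95% interval of -0.68 to 0.49, and its sign changed with the library left out, from -0.40 without antimiR-195 replicate 2 to 0.12 without Upy-PEG replicate 1. It was -0.30 without antimiR-195 replicates 2 and 3. The Upy-PEG difference passed 0.05 in DESeq2 (adjusted p = 0.00962), in limma voom with sample weights (0.0158), in edgeR on the 8 libraries compared (0.0485) and in edgeR without antimiR-195 replicates 2 and 3 (0.0402). Over its alternatives that adjusted p ran from 0.00962 to 0.346. The antimiR-195 difference was 0.81 without antimiR-195 replicates 2 and 3 and passed in DESeq2 alone (adjusted p = 0.0499, range 0.0499 to 0.999). An annotated gene on the opposite strand, Gm11551, overlaps Meox1, and whether counting used strand is not given in the sources used here.

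Among the ligand genes Tgfb1, Tgfb2 and Tgfb3, the larger differences in Upy-PEG hearts were those of Tgfb3 and Tgfb2. Tgfb3 (ENSMUSG00000021253, chr12:86056745-86079041, minus strand) had 25.2, 27.7, 20.9 and 26.4 CPM in antimiR-195 hearts, 48.5, 41.5, 23.5 and 25.8 CPM in Upy-PEG hearts, and 22.2, 21.5, 24.6 and 23.3 CPM in PBS hearts. Upy-PEG replicates 1 and 2 were above every other library, and replicates 3 and 4 were within the range of the antimiR-195 hearts. The log2 fold change was 0.61 ± 0.20 (SE) for Upy-PEG against PBS (1.52-fold, edgeR adjusted p = 0.181), and -0.48 ± 0.20 for antimiR-195 against Upy-PEG (0.719-fold, adjusted p = 0.367). Tgfb3 overlaps Ttll5 on the opposite strand. Tgfb2 (ENSMUSG00000039239, chr1:186622792-186705989, minus strand), the ligand with a large part in heart valve development, had 13.1, 13.8, 12.2 and 16.4 CPM in antimiR-195 hearts, 27.5, 17.6, 15.4 and 15.2 CPM in Upy-PEG hearts, and 12.2, 12.7, 15.4 and 13.2 CPM in PBS hearts. Upy-PEG replicate 1 alone stood clear of the rest. Tgfb2 overlaps Gm26169 on the opposite strand. The log2 fold change of Tgfb2 was 0.51 ± 0.18 for Upy-PEG against PBS (1.42-fold, edgeR adjusted p = 0.222) and -0.45 ± 0.18 for antimiR-195 against Upy-PEG (0.731-fold, adjusted p = 0.364). Leaving out Upy-PEG replicate 1 gave 0.27 and -0.22 for Tgfb2, and 0.41 and -0.28 for Tgfb3. Against PBS, antimiR-195 gave 0.05 ± 0.18 for Tgfb2 and 0.13 ± 0.20 for Tgfb3, with intervals of -0.33 to 0.44 and -0.29 to 0.55, and 0.15 for Tgfb2 without antimiR-195 replicates 2 and 3.

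Tgfb1 (ENSMUSG00000002603, chr7:25687002-25705077, plus strand) differed less between the gels. It had 42.3, 56.0, 51.9 and 43.5 CPM in antimiR-195 hearts, 56.3, 51.1, 45.1 and 49.5 CPM in Upy-PEG hearts, and 45.0, 38.5, 41.7 and 38.4 CPM in PBS hearts. The lowest Upy-PEG value barely cleared the highest PBS value, and the antimiR-195 range overlapped both. Upy-PEG was 0.30 ± 0.11 above PBS on the log2 scale (1.23-fold, edgeR adjusted p = 0.243), a difference that passed in limma voom with sample weights (adjusted p = 0.0339, range over alternatives 0.0339 to 0.601). AntimiR-195 was 0.24 ± 0.11 above PBS (1.18-fold, edgeR adjusted p = 0.301), and 0.08 above PBS without its replicates 2 and 3. AntimiR-195 against Upy-PEG gave -0.06 ± 0.11, with an interval of -0.30 to 0.18, and -0.23 without antimiR-195 replicates 2 and 3.

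The ligand makeup followed the same libraries. Summed over Tgfb1, Tgfb2 and Tgfb3, the ligand level was 27.9 ± 2.91 RPKM in antimiR-195, 36.4 ± 8.98 RPKM in Upy-PEG and 25.3 ± 1.99 RPKM in PBS hearts (SD, n = 4 each). The Upy-PEG libraries held 48.1, 38.5, 28 and 30.9 RPKM, so that replicates 1 and 2 were highest. Tgfb1 made up 64.6 ± 4.42% of this sum in antimiR-195, 58.8 ± 5.86% in Upy-PEG and 62.5 ± 2.36% in PBS hearts. Tgfb3 contributed 25.4 ± 3.07%, 29.6 ± 5.17% and 26.5 ± 1.41% in the same order of groups, with 34.0% and 34.1% in Upy-PEG replicates 1 and 2 and 24.9% and 25.3% in replicates 3 and 4.

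**Figure D3:**
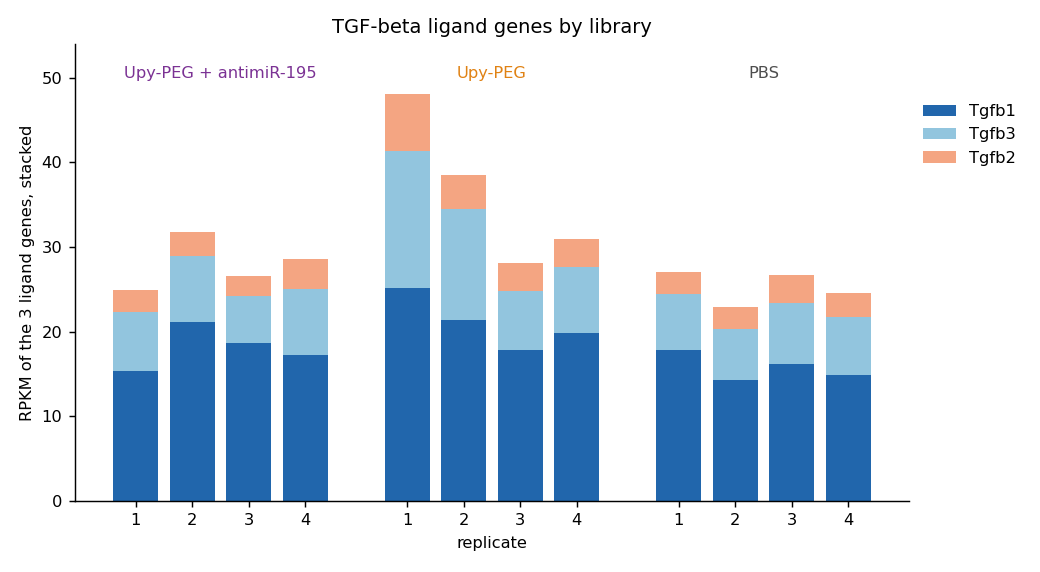
Stacked RPKM of Tgfb1, Tgfb2 and Tgfb3 (y axis, linear from 0) in each of the 12 libraries, antimiR-195 at the left, then Upy-PEG, then PBS. Upy-PEG replicates 1 and 2 have the tallest stacks, 48.1 and 38.5 RPKM, and PBS hearts average 25.3 RPKM.

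Inhba (ENSMUSG00000041324, chr13:16011851-16031621, plus strand) encodes the beta A subunit of activin A, which signals through SMAD2 and SMAD3 by its own receptors. It rested on few reads, 13, 11, 2 and 19 in antimiR-195 hearts, 61, 17, 11 and 15 in Upy-PEG hearts, and 6, 14, 23 and 9 in PBS hearts. Upy-PEG replicate 1, at 1.90 CPM, was the single high library, and the groups overlapped. The log2 fold change for Upy-PEG against PBS was 0.76 ± 0.59 (SE, edgeR adjusted p = 0.658) with an interval of -0.50 to 2.02, and 0.01 without Upy-PEG replicate 1. For antimiR-195 it was -0.84 ± 0.60 against Upy-PEG (-0.10 without that Upy-PEG library) and -0.09 ± 0.64 against PBS, with an interval of -1.45 to 1.28. Leaving out antimiR-195 replicates 2 and 3 gave -0.38 and 0.39 for those 2 comparisons.

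Of the latency genes, Ltbp1 was lower than PBS in all 8 gel libraries and Ltbp3 was lowest in antimiR-195 hearts, though neither difference passed the adjusted test. Ltbp1 (ENSMUSG00000001870, chr17:75005568-75392512, plus strand) had 69.3, 51.3, 60.1 and 66.2 CPM in antimiR-195 hearts, 68.4, 66.1, 61.5 and 68.1 CPM in Upy-PEG hearts, and 69.9, 80.6, 86.6 and 70.0 CPM in PBS hearts. The gap between gel and PBS libraries was smallest between antimiR-195 replicate 1 and PBS replicate 1. Ltbp1 overlaps Gm6276 on its own strand. Its log2 fold change was -0.32 ± 0.11 for antimiR-195 against PBS (SE, 0.804-fold, edgeR adjusted p = 0.253), -0.22 ± 0.11 for Upy-PEG against PBS (0.86-fold, adjusted p = 0.432), and -0.10 ± 0.11 for antimiR-195 against Upy-PEG (adjusted p = 0.672), which was 0.04 without antimiR-195 replicates 2 and 3. Without those libraries the antimiR-195 difference from PBS was -0.17. Ltbp3 (ENSMUSG00000024940, chr19:5740904-5758532, plus strand) had 54.1, 53.2, 56.8 and 56.9 CPM in antimiR-195 hearts, 81.1, 71.8, 59.0 and 66.8 CPM in Upy-PEG hearts, and 63.0, 59.4, 68.6 and 65.0 CPM in PBS hearts. The 4 antimiR-195 libraries lay close together and below all 8 other libraries. For Ltbp1 and Ltbp3 too, the share of all genes with such a split of 8 against 4 was not counted. With library size alone in place of TMM, neither split held. AntimiR-195 averaged 55.3 ± 1.88 CPM, Upy-PEG 69.7 ± 9.28 CPM and PBS 64.0 ± 3.85 CPM (SD, n = 4 each). The log2 fold change of Ltbp3 was -0.33 ± 0.10 for antimiR-195 against Upy-PEG (0.793-fold, edgeR adjusted p = 0.364, unadjusted rank 183), -0.21 ± 0.10 for antimiR-195 against PBS (adjusted p = 0.307) and 0.12 ± 0.10 for Upy-PEG against PBS (adjusted p = 0.682). Without antimiR-195 replicates 2 and 3 the first of these was also -0.33. Per length, the ratio of Ltbp3 to Ltbp1 was 1.83 ± 0.224 in antimiR-195, 2.12 ± 0.211 in Upy-PEG and 1.70 ± 0.18 in PBS hearts. The Upy-PEG ratios (1.93 to 2.39) lay above the PBS ratios (1.49 to 1.87), and the antimiR-195 ratios (1.58 to 2.1) overlapped both. How often ratios of other gene pairs separate in this way was not counted.

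Counted over the 10 genes, groups did not overlap for 3 genes in Upy-PEG against PBS, higher for Tgfb1 and Meox1 and lower for Ltbp1, where 5.91% of all genes were higher and 3.77% lower without overlap. In antimiR-195 against PBS they did not overlap for Meox1 (higher, background 2.74%) and for Ltbp1 and Ltbp3 (lower, background 3.32%). In antimiR-195 against Upy-PEG they did not overlap for Ltbp3 alone (lower, background 2.46%; higher, background 1.94%). Scaled by library size alone, the groups overlapped for Tgfb1 and Ltbp1 and not for Tgfb2 in the first comparison, and they overlapped for Ltbp3 in the second.

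The receptor genes were highest in Upy-PEG replicate 1. Tgfbr1 (ENSMUSG00000007613, chr4:47353222-47414931, plus strand), the kinase that phosphorylates SMAD2 and SMAD3, had 24.6, 21.8, 22.5 and 27.6 CPM in antimiR-195 hearts, 34.4, 32.8, 23.2 and 25.0 CPM in Upy-PEG hearts, and 18.5, 22.1, 26.7 and 23.2 CPM in PBS hearts. Upy-PEG replicates 1 and 2 were above all other libraries, as for Tgfb3. Upy-PEG against PBS gave 0.35 ± 0.15 on the log2 scale (SE, 1.28-fold, edgeR adjusted p = 0.32), antimiR-195 against PBS 0.09 ± 0.15 (adjusted p = 0.74), and antimiR-195 against Upy-PEG -0.26 ± 0.15 (adjusted p = 0.427). The last value was -0.16 without Upy-PEG replicate 1, -0.14 without antimiR-195 replicates 2 and 3, and -0.09 with the slope of expression on gene length as a covariate. The antimiR-195 difference from PBS was 0.21 without those antimiR-195 libraries. Tgfbr2 (ENSMUSG00000032440, chr9:116084293-116175360, minus strand), the receptor that binds ligand first, had 63.5, 62.5, 61.2 and 65.1 CPM in antimiR-195 hearts, 90.2, 78.9, 64.0 and 79.0 CPM in Upy-PEG hearts, and 63.3, 74.3, 73.9 and 75.5 CPM in PBS hearts. The antimiR-195 libraries were tightly grouped and overlapped with Upy-PEG replicate 3 and PBS replicate 1. AntimiR-195 against Upy-PEG gave -0.31 ± 0.11 (0.809-fold, edgeR adjusted p = 0.364; -0.28 without antimiR-195 replicates 2 and 3), antimiR-195 against PBS -0.19 ± 0.11 (adjusted p = 0.362), and Upy-PEG against PBS 0.12 ± 0.11 (adjusted p = 0.706). Per length, Tgfbr2 exceeded Tgfbr1 by a ratio of 3.59 ± 0.294 in antimiR-195, 3.74 ± 0.438 in Upy-PEG and 4.37 ± 0.403 in PBS hearts.

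Smad7 (ENSMUSG00000025880, chr18:75367529-75395935, plus strand), the feedback inhibitor, had 23.8, 19, 19.7 and 25.0 CPM in antimiR-195 hearts, 25.0, 23.3, 28.9 and 18.1 CPM in Upy-PEG hearts, and 24.7, 24.6, 21.5 and 22.4 CPM in PBS hearts. The 3 groups overlapped throughout, and Upy-PEG held both the highest and the lowest of the 12 values. Upy-PEG against PBS gave 0.03 ± 0.14 on the log2 scale (edgeR adjusted p = 0.95) with an interval of -0.27 to 0.33. AntimiR-195 gave -0.09 ± 0.14 against PBS (adjusted p = 0.74), with an interval of -0.39 to 0.21, and -0.12 ± 0.14 against Upy-PEG (adjusted p = 0.679), with an interval of -0.42 to 0.18. Without antimiR-195 replicates 2 and 3 those antimiR-195 values were 0.08 and 0.04.

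The 4 genes with a seed match, Tgfb3, Tgfbr1, Tgfbr2 and Smad7, thus had log2 fold changes of -0.48, -0.26, -0.31 and -0.12 for antimiR-195 against Upy-PEG, and -0.43, -0.14, -0.28 and 0.04 without antimiR-195 replicates 2 and 3. The median over all 3296 genes with a match was -0.05, and that of the 10013 genes without one -0.00. Among 82 other pathway genes with an annotated region, the 31 with a match had a median of -0.18, against -0.17 over all 82. The level of miR-195 was not measured in these polyadenylated libraries.

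Among Upy-PEG hearts most of the 10 genes were high in the same library. Upy-PEG replicate 1 was the highest of 12 libraries for 7 genes, Tgfb1, Tgfb2, Tgfb3, Inhba, Ltbp3, Tgfbr1 and Tgfbr2, and the highest of its group for 9. The share of all genes that were highest or lowest in each library was not counted, so these ranks cannot be called particular to the 10 genes. Upy-PEG replicate 3 was the lowest of its group for 8 genes and the highest of all for Smad7. AntimiR-195 replicate 2 was the highest of 12 for Meox1 and the highest of its group for Tgfb1 and Tgfb3, but the lowest of 12 for 2 genes and the lowest of its group for 4. AntimiR-195 replicate 4 was the highest of its group for 6 genes, and replicate 3 the lowest for 5. The median coefficient of variation over the 10 genes was 12.9% in antimiR-195, 19.1% in Upy-PEG and 9.19% in PBS hearts. Leaving out Upy-PEG replicate 1 brought the Upy-PEG difference from PBS to 0.05 for Ltbp3, 0.05 for Tgfbr2 and 0.90 for Meox1, and leaving out Upy-PEG replicate 3 brought it to 0.77 for Tgfb3 and 1.26 for Meox1.

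**Figure D4:**
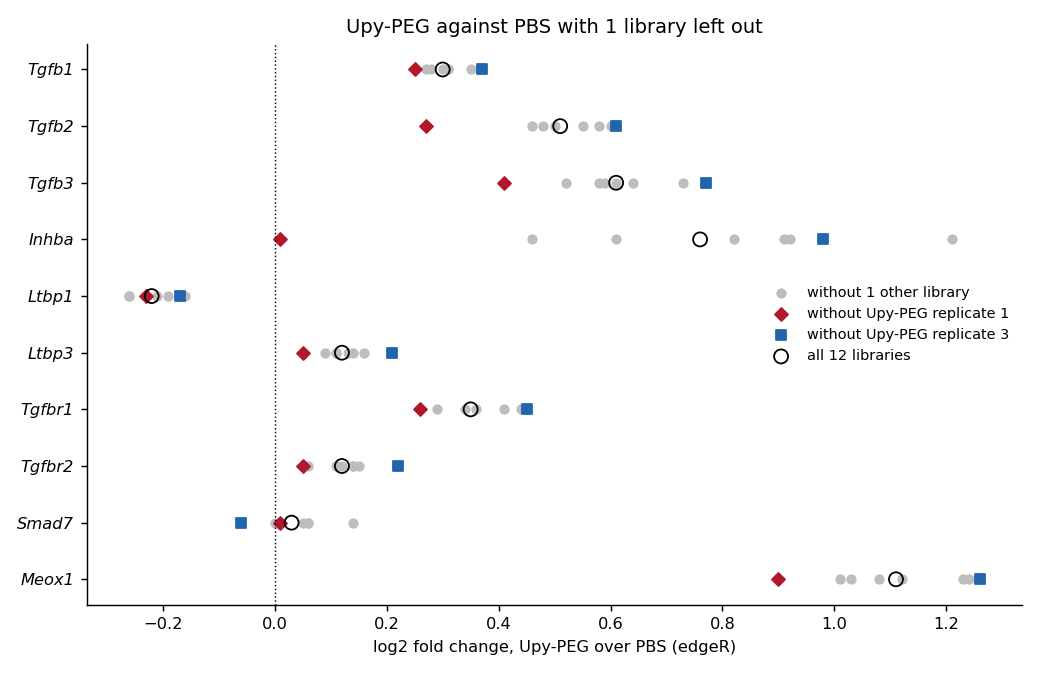
Log2 fold change of each gene for Upy-PEG against PBS (x axis) with all 12 libraries and with 1 library left out in turn; colours mark which library was left out. Leaving out Upy-PEG replicate 1 gives the lowest value for Tgfb2 (0.27), Tgfb3 (0.41), Inhba (0.01) and Meox1 (0.90), and no library left out brings Meox1 below 0.90.

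Markers of other cell types also differed between libraries, not all in the same ones. The summed level of 10 myofibroblast markers was 489, 1076, 499 and 633 CPM in antimiR-195 hearts, 1746, 1090, 597 and 701 CPM in Upy-PEG hearts, and 374, 457, 511 and 478 CPM in PBS hearts, so it was highest in Upy-PEG replicates 1 and 2 and antimiR-195 replicate 2, the same 3 libraries in which Meox1 was highest. For Upy-PEG against PBS, 7 of the 10 were higher at an unadjusted p under 0.05 and none passed the adjusted test. Postn, Acta2, Cthrc1, Tnc, Fap, Lox and Comp of this list are also among the TGF-beta targets given below. So are Col1a1 and Col1a2 of the fibroblast markers, and the marker and target results therefore share genes. The 10 fibroblast markers summed to 2960 to 3760 CPM in antimiR-195, 3360 to 5980 CPM in Upy-PEG and 3070 to 4160 CPM in PBS hearts, with Upy-PEG replicate 1 the highest of 12. The 10 macrophage markers summed to 786 to 1550, 1130 to 1670 and 598 to 926 CPM in the same order, and Upy-PEG replicate 1, at 1312 CPM, was the third of its group. Platelets are a known store of TGF-beta 1 protein, and the 10 platelet and megakaryocyte markers summed to 36.8 to 128, 55.6 to 69.0 and 26.3 to 46.3 CPM in that order, highest in antimiR-195 replicate 2 and, among Upy-PEG hearts, lowest in replicate 1. The 10 cardiomyocyte markers had 85600 to 104000 CPM in antimiR-195, 61800 to 87200 CPM in Upy-PEG and 87600 to 106000 CPM in PBS hearts. Upy-PEG replicate 1 was the lowest of 12 for them, and antimiR-195 replicate 2 the highest of its group. The 7 erythroid markers summed to 547 to 1315 CPM in antimiR-195, 254 to 551 CPM in Upy-PEG and 481 to 1459 CPM in PBS hearts. At an unadjusted p under 0.05, 5 of these 7 were lower for Upy-PEG against PBS and 5 higher for antimiR-195 against Upy-PEG. The 10 neutrophil markers summed to 10.4 to 28.6, 24.5 to 35.8 and 9.88 to 30.1 CPM in the same order of groups. Of these, Ly6g, Ngp, Camp and Elane averaged under 0.1 CPM, and the other 6 were all above 0 on the log2 scale for Upy-PEG against PBS and all below 0 for antimiR-195 against Upy-PEG, 2 at an unadjusted p under 0.05 each time. At that p, 9 of the 10 macrophage markers were higher for Upy-PEG against PBS and 5 for antimiR-195 against PBS. For antimiR-195 against Upy-PEG, 5 macrophage markers were lower and 6 of the 10 cardiomyocyte markers higher. Of the fibroblast markers, 5 were higher and 1 lower for Upy-PEG against PBS. The platelet, endothelial, smooth muscle, epicardial, T cell and B cell lists had at most 3 such markers in either direction in any comparison. Over all genes, 9.33% were higher and 3.83% lower at an unadjusted p under 0.05 for Upy-PEG against PBS. These shares were 8.65% and 7.89% for antimiR-195 against PBS, and 6.67% and 6.4% for antimiR-195 against Upy-PEG. No gene of these lists was at 0 in every library. The part of these cell types in the results was not tested.

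Genes outside the 10 whose log2 CPM followed theirs most closely over the 12 libraries, by Pearson r and with no test, are named as a description, since libraries share depth and composition. For Meox1 these were Spcs3 (r = 0.953) and Ccn2 (0.935). Ccn2 encodes a matricellular protein known as a TGF-beta target. For Tgfb3 they were Rrbp1 (0.967) and Edem1 (0.947), for Tgfb2 Dhx58 (0.97) and Rai14 (0.966), and for Tgfb1 Cd24a and Anxa5 (0.949 each). For Tgfbr1 they were Ptbp3 (0.954) and Zeb2 (0.953), for Tgfbr2 Axl (0.953) and Chst11 (0.947), for Ltbp1 Tnxb (0.97) and Ulk1 (0.967), and for Ltbp3 Man2b1 (0.943) and Fndc1 (0.934). Those of Inhba, Nsd2 (0.971) and Uba6 (0.938), rest on the few reads of Inhba, and Smad7 had the weakest, Pde4b (0.877) and Rbm10 (0.858).

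Beyond the 10 genes, 88 further pathway genes were listed in 6 classes and 82 were tested. None passed the adjusted test in any comparison. For Upy-PEG against PBS 56 were higher and 26 lower, with a median log2 fold change of 0.21. At an unadjusted p under 0.05 there were 34 higher, against 9.33% of all genes, and 4 lower, close to the 3.83% of all genes. The 25 tested targets, mostly matrix and fibroblast genes, had the highest class median: 23 were higher, 17 at an unadjusted p under 0.05, with a median of 0.71. That median was 0.52 without Upy-PEG replicate 1, with 22 higher and 13 at that p, against 6.17% of all genes. Postn, which encodes the matrix protein periostin, had 1.66 ± 0.37 (SE, edgeR adjusted p = 0.0971) and Cthrc1, a marker of activated fibroblasts, 1.71 ± 0.45 (adjusted p = 0.114). Of 17 latency and activation genes 15 were higher, 9 at an unadjusted p under 0.05, with Mmp14, a membrane-bound protease, at 1.24 ± 0.28 and Nrros, which holds latent TGF-beta on macrophages and microglia, at 0.66 ± 0.14 (both adjusted p = 0.0971). In edgeR without antimiR-195 replicates 2 and 3, the adjusted p for Upy-PEG against PBS was 0.0304 for Postn, 0.0359 for Cthrc1 and 0.0402 for both Mmp14 and Nrros. Of 18 alternative tools, settings and sets of libraries, Postn passed 0.05 in 7, Cthrc1 in 4, Mmp14 in 6 and Nrros in 5. The highest adjusted p over these alternatives was 0.321 for Postn, Mmp14 and Nrros and 0.359 for Cthrc1. Without Upy-PEG replicate 1, 13 of the 17 latency and activation genes were higher, 3 at an unadjusted p under 0.05, against 6.17% of all genes. Of 14 antagonists and feedback genes 10 were higher, with Bgn (0.66 ± 0.18) and Fstl1 (0.88 ± 0.27) as the lowest by p. The ligands of the wider family divided into 5 higher and 5 lower, with Gdf6 at 1.5 ± 0.43 and Inhbb at 0.65 ± 0.20. Receptors and SMADs were mostly below 0, although with library size alone 5 of 7 SMAD genes and 4 of 9 receptors were higher. Of 9 receptors 7 were lower, with Tgfbr3 at -0.33 ± 0.15 and Acvr1 at 0.16 ± 0.08, and of 7 SMAD genes 6 were lower, with Smad9 at -0.55 ± 0.22 and Smad6 at -0.21 ± 0.12 (-0.13 without PBS replicate 2).

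For antimiR-195 against PBS 45 of the 82 were higher and 37 lower, with a median of 0.04 (-0.01 with library size alone). At an unadjusted p under 0.05 there were 13 higher and 7 lower, where 8.65% and 7.89% of all genes were. Without antimiR-195 replicates 2 and 3 these numbers were 5 and 3 (2.2% and 2.28% of all genes), and with library size alone 6 and 8 (5.28% and 10.3%). Targets were higher for 20 of 25 (16 without antimiR-195 replicates 2 and 3), with Id2 at 0.75 ± 0.19 and Scx at 0.63 ± 0.18, while all 7 SMAD genes were lower (6 without those libraries), with Smad9 at -0.56 ± 0.22 and Smad6 at -0.23 ± 0.12. The ligand Gdf15, a stress-induced cytokine, had 1.32 ± 0.33 and Gdf10 -0.72 ± 0.24. The receptors Tgfbr3 and Acvr1b had -0.49 ± 0.15 and -0.41 ± 0.12. Ltbp4, like Ltbp1 a latency protein, had -0.48 ± 0.13 and Nrros 0.32 ± 0.15, and the feedback genes Bambi and Pmepa1 had 0.50 ± 0.19 and 0.38 ± 0.15. Many of these values moved closer to 0 without antimiR-195 replicates 2 and 3, to 0.04 for Bambi (0.30 without replicate 2 alone), 0.17 for Pmepa1, 0.40 for Id2 and 0.42 for Scx. Of the negative ones, Tgfbr3 and Ltbp4 were then at -0.30 each, Acvr1b at -0.22 and Smad6 at -0.13 (-0.15 without PBS replicate 2). For antimiR-195 against Upy-PEG 14 were higher and 68 lower, with a median of -0.17. At an unadjusted p under 0.05 there was 1 higher and 15 lower, where 6.67% and 6.4% of all genes were. The numbers were 1 and 9 without Upy-PEG replicate 1 (1.94% and 2.79% of all genes), 2 and 23 without antimiR-195 replicates 2 and 3 (2.45% and 6.61%), and 1 and 29 with library size alone (0.982% and 17.3%). All 17 latency and activation genes were lower, 5 at an unadjusted p under 0.05 (11 with library size alone), with a median of -0.34. Without Upy-PEG replicate 1, 15 of them were lower and 2 at that p (median -0.19), and without antimiR-195 replicates 2 and 3, 14 (median -0.43). Among them Bmp1, a matrix protease, had -0.53 ± 0.16 and Fbn1, the microfibril protein that anchors LTBPs, -0.90 ± 0.29 (-0.55 without Upy-PEG replicate 1). The collagen genes Col1a1 and Col1a2 had -1.23 ± 0.28 and -0.98 ± 0.29 (edgeR adjusted p = 0.364 for both), the lowest p of the targets. The 25 targets had 19 lower with all libraries (median -0.23), 22 without antimiR-195 replicates 2 and 3 (median -0.65), and 12 without Upy-PEG replicate 1 (median 0.01). Bgn had -0.56 ± 0.18 and Nog, a BMP antagonist, 1.17 ± 0.43, which was 0.74 without antimiR-195 replicates 2 and 3. The receptors Acvr1b and Acvr1 had -0.32 ± 0.12 (-0.13 without those libraries) and -0.20 ± 0.08, the ligands Inhbb and Bmp7 -0.42 ± 0.19 and 0.37 ± 0.21, and Smad3 and Smad4 -0.16 ± 0.16 and -0.08 ± 0.10, or 0.04 and 0.03 without them.

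**Figure D5:**
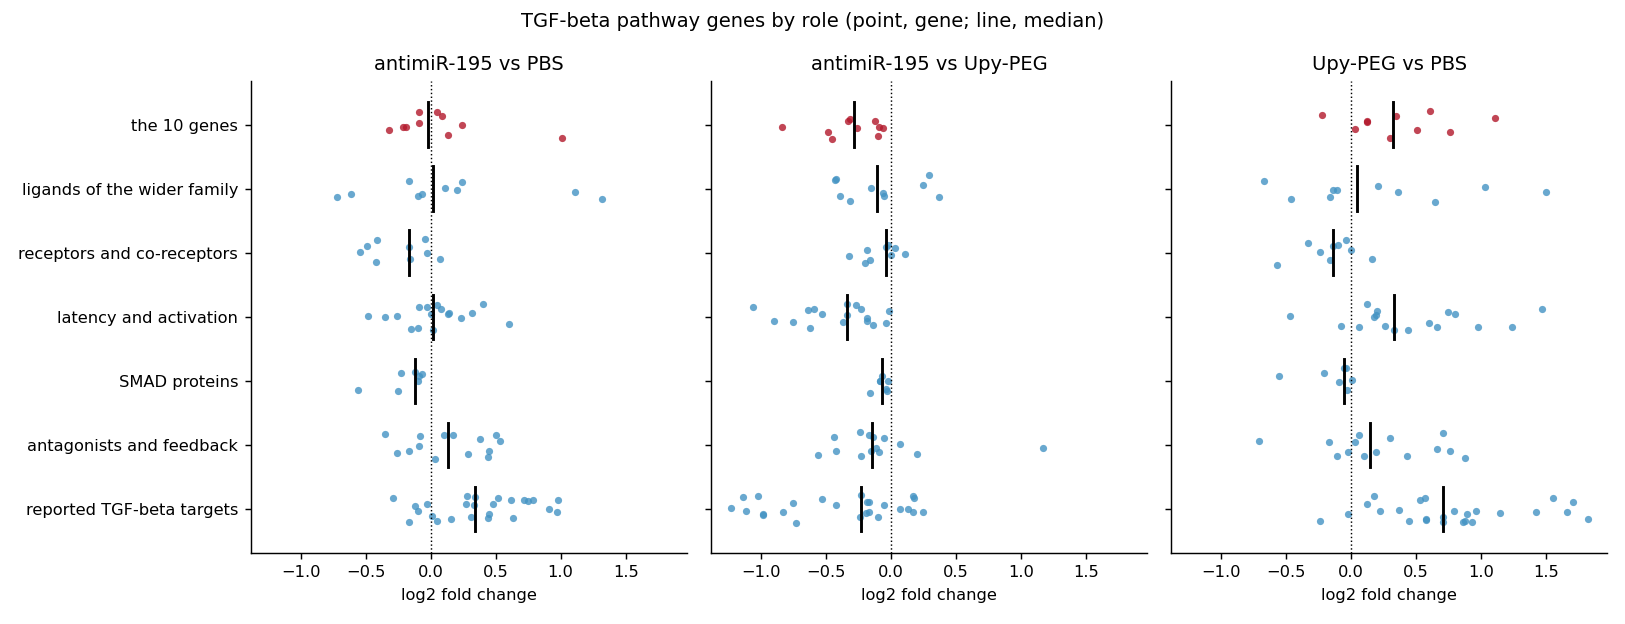
Log2 fold change of each tested pathway gene (points, x axis) by class, in the 3 comparisons of edgeR, with the median of each class. The targets and the latency and activation genes lie mostly above 0 for Upy-PEG against PBS (medians 0.71 and 0.33), and the latency and activation genes all lie below 0 for antimiR-195 against Upy-PEG (median -0.34).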

How the data were processed

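Per the submitters' processing notes, the tools were STAR, HTSeq and DESeq and the build GRCm38; tool versions, the annotation and the strand setting are not given in the sources used here. The labels name a stranded mRNA kit. The authors deposited the raw count of each gene, and a table of RPKM, from which 1 length per gene followed for 23961 genes. The count table equalled the per-sample files in 459516 of 459516 cells. Of uniquely aligned reads, those on no gene were 6.25% to 8.77%, ambiguous ones 0.664% to 0.898%, and both were left out. Only uniquely assigned reads were counted. GENCODE M21 named 36429 gene IDs, holding 99.86% of counts.

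Counts of all 12 libraries were fitted with edgeR 4.0.16 (R 4.3.3; filterByExpr, TMM, glmQLFit, glmQLFTest on group means), with Benjamini-Hochberg adjustment over 14770 genes and a threshold of 0.05. The code of the fit was tested on simulated data. These had the same spread between replicates for every gene and no library set apart, so that test does not bear on the calls made here. CPM are TMM-scaled with no prior count; log2 CPM used a prior count of 2. RPKM served for levels between genes. A positive log2 fold change means higher in the group named first. Seed sites were searched in 3' untranslated regions of at least 20 bases. Alternatives were RLE and library-size scaling, DESeq2 1.42.0, limma 3.58.1 (voom with sample weights, and trend on log2(RPKM + 0.1)), filtering on nothing or on a mean CPM of at least 1, the 8 libraries compared, an adjusted p under 0.10, a covariate for the slope of expression on gene length, and leaving out libraries. The overlap of groups under other scalings, and counts of genes without doubtful libraries or under other scalings, were added after seeing the data.

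All 10 genes are named in every comparison. Other pathway genes are named by a rule, the 2 with the lowest p per class and comparison. The 2 genes most like each of the 10 were taken from 10452 genes with a mean CPM of at least 5. The members and lists were chosen with earlier results of these data known. The labels give no batch, litter or pairing, and depth bears on counting error only.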

Additional observations from a re-analysis of the deposited data

Results flagged for a closer look

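Over 30 combinations of gene and group, 2 held a library whose gap to its nearest neighbour, divided by the range of the 4 values, passed Dixon's critical value for 4 samples; chance alone flags about 1 in 20. Inhba in Upy-PEG replicate 1 stood at 1.90 CPM (61 reads), with the other 3 Upy-PEG libraries between 0.436 and 0.562 CPM and a gap of 0.914 of the range. Tgfbr2 in PBS replicate 1 stood at 63.3 CPM, with the other 3 PBS libraries between 73.9 and 75.5 CPM and a gap of 0.874 of the range.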

How the results depend on the processing

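For Upy-PEG against PBS the number of genes called was 0, and 155 at an adjusted p under 0.10, 69 with no filter, 511 with DESeq2, 918 with limma voom with sample weights, 172 on the 8 libraries compared, 349 without antimiR-195 replicates 2 and 3, 333 with the gene length slope as a covariate, and 0 to 46 with 1 library left out (46 without Upy-PEG replicate 3). For antimiR-195 against PBS it was 0, and 1 with no filter, 97 with DESeq2 and 1 with limma voom. For antimiR-195 against Upy-PEG it was 0, and 16 with DESeq2. Of the 10 genes, Upy-PEG against PBS called 1 with DESeq2, 2 with limma voom, 1 on the 8 libraries and 1 without antimiR-195 replicates 2 and 3; antimiR-195 against PBS called 1 with DESeq2; no library left out alone called any. With 8mers only, 1 of the 10 genes had a seed match, against 4.54% of the 13309 genes searched. Counting shorter, 6-base matches to the seed, it was 4 of the 10, against 45.6%. The cause of these changes was not tested.

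Moves were judged against the SE of the reported log2 fold change times the square root of 2. Of 537 alternative values for the 10 genes, 526 moved less than that and stayed on the same side of the threshold. Another 5 moved further and 6 passed the threshold. The other sign or a value at 0 was found for 20, in Tgfb2, Inhba, Ltbp1, Smad7 and Meox1, in comparisons where the reported value was under its SE. Of 1509 for the named pathway genes the numbers were 1427, 22 and 47, and 64 changed sign, 13 of them where the reported value exceeded its SE. For antimiR-195 against Upy-PEG, Bambi gave -0.10 with limma voom, 0.00 on RPKM, -0.27 without antimiR-195 replicates 2 and 3, -0.11 with the slope and -0.01 to 0.34 with 1 library left out (-0.01 without antimiR-195 replicate 2); without replicates 2 and 3 and with the slope, Tgfbr3 gave 0.02 and 0.01, Scx -0.03 and -0.01, and Smad3 0.04 and 0.02. For antimiR-195 against PBS with the slope, Smad4 gave 0.01 and Nog -0.03. No paired analysis was possible because the labels give no replicate numbers, and the numbers used here follow the order of deposition. Counting error is largest for Inhba, at 2 to 61 reads per library.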
